A study of Mus musculus with 6 samples.

Results

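The Id proteins (Id1, Id2, Id3 and Id4) and the E proteins they bind (encoded by *Tcf3*, *Tcf4* and *Tcf12*) were followed on arrays of osteoclast precursors given recombinant GDF11 (rGDF11). All 7 genes were taken by name, and each was read by a single probe set that the platform annotation pairs with that gene alone, so that 7 genes of the 19938 that could be read this way, and 7 probe sets of 35556, are described. Bone marrow-derived macrophages (BMMs) are macrophages grown from marrow with M-CSF, and they turn into bone-resorbing osteoclasts when RANKL is added. Marrow came from the tibiae of 9-week-old mice, and the methods name female C57BL animals. Both groups received 100 ng per ml M-CSF and 50 ng per ml RANKL for 24 h. The control group (3 samples) had vehicle, and the GDF11 group (3 samples) had 100 ng per ml rGDF11, a ligand of the TGF-β superfamily. There was therefore no sample without RANKL. The study counted multinucleated osteoclasts at times later than 24 h, and cell fusion at 24 h was not measured on the arrays. The samples are described as biological replicates with 1 array each. No source used here says if each had its own mouse, and p-values measure only the spread between these samples. These are whole cultures, in which a change in the share of expressing cells and a change in RNA per cell cannot be told apart.

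Transcription factors of the helix-loop-helix (HLH) class bind DNA as pairs through a basic region beside the HLH domain, and E proteins are the broadly expressed members that pair with each other or with cell-type-specific partners on the sequence CANNTG, the E-box. Id proteins have the HLH domain but no basic region. They pair with E proteins and keep them off DNA, so the balance between Id and E proteins sets how much E-protein activity a cell has. *Id* genes are classical immediate targets of BMP signalling through Smad1/5, and in osteoclast precursors Id proteins are known to restrain differentiation, in part by binding Mitf, the HLH leucine zipper factor that turns on *Oscar*. *Tcf3* encodes E2A (the E12 and E47 proteins), *Tcf12* encodes HEB and *Tcf4* encodes E2-2, the E protein of plasmacytoid dendritic cells. *Tcf4* is not the Wnt effector of the same nickname, which is the product of *Tcf7l2*.

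The stretches just before the starts of *Id2*, *Id3* and *Id4* are shown because *Id2* and *Id3* were higher with rGDF11 while *Id4*, of the same family, did not pass the test. RefSeq sequences were matched for 3 of the 4 *Id* genes (GRCm38.p6, the 250 bases before the annotated start, strand of the gene). Capitals mark every match, on either strand, to CANNTG (the E-box), GGCGCC (a GC-rich Smad motif), GTCTG (a Smad-type box, read CAGAC on the other strand) or CCAAT (read ATTGG on the other strand). No base lay in more than 1 of these matches.
*Id2*, chr12:25096093-25096342, minus strand: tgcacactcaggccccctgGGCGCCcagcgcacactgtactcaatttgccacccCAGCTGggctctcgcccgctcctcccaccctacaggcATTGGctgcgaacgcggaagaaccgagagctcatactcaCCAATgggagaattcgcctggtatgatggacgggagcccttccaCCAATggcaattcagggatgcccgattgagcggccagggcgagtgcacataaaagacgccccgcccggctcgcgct
*Id3*, chr4:136143572-136143821, plus strand: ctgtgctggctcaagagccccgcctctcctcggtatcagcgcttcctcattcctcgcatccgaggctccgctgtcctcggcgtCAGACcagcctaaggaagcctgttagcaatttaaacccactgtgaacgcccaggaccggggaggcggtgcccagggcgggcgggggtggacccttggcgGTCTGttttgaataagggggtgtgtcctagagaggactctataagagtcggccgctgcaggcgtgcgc
*Id4*, chr13:48260866-48261115, plus strand: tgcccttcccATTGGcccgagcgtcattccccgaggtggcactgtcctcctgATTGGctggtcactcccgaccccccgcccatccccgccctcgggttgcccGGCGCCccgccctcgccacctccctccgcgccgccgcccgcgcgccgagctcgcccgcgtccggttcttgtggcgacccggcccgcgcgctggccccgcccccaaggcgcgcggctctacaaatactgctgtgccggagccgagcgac

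The letters of the 3 windows differed. The *Id2* window held 1 E-box, 1 GGCGCC and 3 CCAAT matches. The *Id3* window held 2 GTCTG matches and none of the other motifs. In the *Id4* window there were 1 GGCGCC and 2 CCAAT matches. Among 32851 windows of 250 bases, CANNTG was found in 66.2%, GGCGCC in 9.59%, GTCTG in 42.2% and CCAAT in 33.8%. GC content was 62.8% before *Id2* and before *Id3* and 75.6% before *Id4*, against a median of 52.4% over all windows. The *Id2* and *Id3* windows shared none of the motifs searched, and no sequence was matched for *Id1*, which also rose. Windows of 250 bases leave out more distant sequence, and the part of any motif in these rises was not tested. A match describes letters only, and binding was not measured on the arrays.

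*Id1*, *Id2*, *Id3* and *Tcf4* were higher with rGDF11. Of the 4 *Id* genes, 3 rose and 1 did not pass limma's test, and of the 3 E-protein genes 1 rose and 2 did not pass. That makes 4 of 7 higher and 0 lower at an adjusted p under 0.05. Over all 23410 tested probe sets 16.0% passed, 7.31% higher and 8.64% lower. At the fold change of 1.5 and unadjusted p under 0.01 that the methods name, with limma's p, *Id1*, *Id2* and *Id3* were higher, against 2.06% of tested probe sets. With the methods' t-test in place of limma, 2 genes met that threshold. All 7 changes were above 0, with a median log2 change of 0.82 over the *Id* genes and 0.17 over the E-protein genes, beside 0.025 over all 19938 genes. The study also reported higher expression of TGF-β pathway genes from these same arrays. The direction of any *Id* gene among them is therefore not independent evidence here.

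*Id1*, which is known best as a target of BMP signals in endothelial and stem cells, rose the most of the 7. Its log2 values were 6.39, 6.25 and 6.02 on the control arrays and 7.36, 7.41 and 7.16 on the GDF11 arrays. Every GDF11 array read higher than every control array, by at least 0.77. The mean went from 6.22 ± 0.19 to 7.31 ± 0.13 (SD, n = 3 arrays per group), a 2.13-fold rise with a 95% interval of 1.78 to 2.54 (limma, adjusted p = 0.000449). Of 19938 genes, 0.552% had a larger rise.

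*Id2*, the family member that innate lymphoid cells and several dendritic cell types depend on, rose with little scatter among treated samples. It read 10.81, 10.57 and 10.59 on the control arrays and 11.44, 11.43 and 11.45 on the GDF11 arrays. The control arrays spread over a wider range than the GDF11 arrays, and the groups were 0.62 apart at their closest. The change was 1.71-fold, with an interval of 1.51 to 1.95 (limma, adjusted p = 0.000453). The mean moved from 10.66 ± 0.13 to 11.44 ± 0.01 (SD, n = 3 arrays per group).

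*Id3*, which acts with *Id2* in lymphocytes, was the least even of the 3 that rose. Control arrays read 5.24, 4.79 and 5.05, and GDF11 arrays read 5.83, 6.17 and 5.68. Both group means lay below the array medians of 6.11 to 6.18. There were no detection calls, so whether *Id3* is expressed in these cells was not measured. The groups did not overlap, with the nearest arrays 0.44 apart. The mean went from 5.03 ± 0.23 to 5.90 ± 0.25 (SD, n = 3 arrays per group), a 1.82-fold rise with an interval of 1.43 to 2.33 (limma, adjusted p = 0.00664). By the methods' t-test on the same values the adjusted p was 0.0728, so this call depended on how the spread was estimated.

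For *Id4*, known mainly from neural and germ line stem cells, no difference was detectable. Its values were 6.05, 5.68 and 6.0 on control arrays and 6.22, 5.98 and 6.11 on GDF11 arrays, close to the array medians. The groups overlapped, as 1 GDF11 array lay below 2 control arrays. The log2 change was 0.19 with a 95% interval of −0.07 to 0.45 (limma, adjusted p = 0.325). That interval reaches a 1.37-fold rise at most and lies below those of *Id1*, *Id2* and *Id3*. The table has no detection calls, so whether *Id4* is expressed in these cells was not measured.

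**Figure D1:**
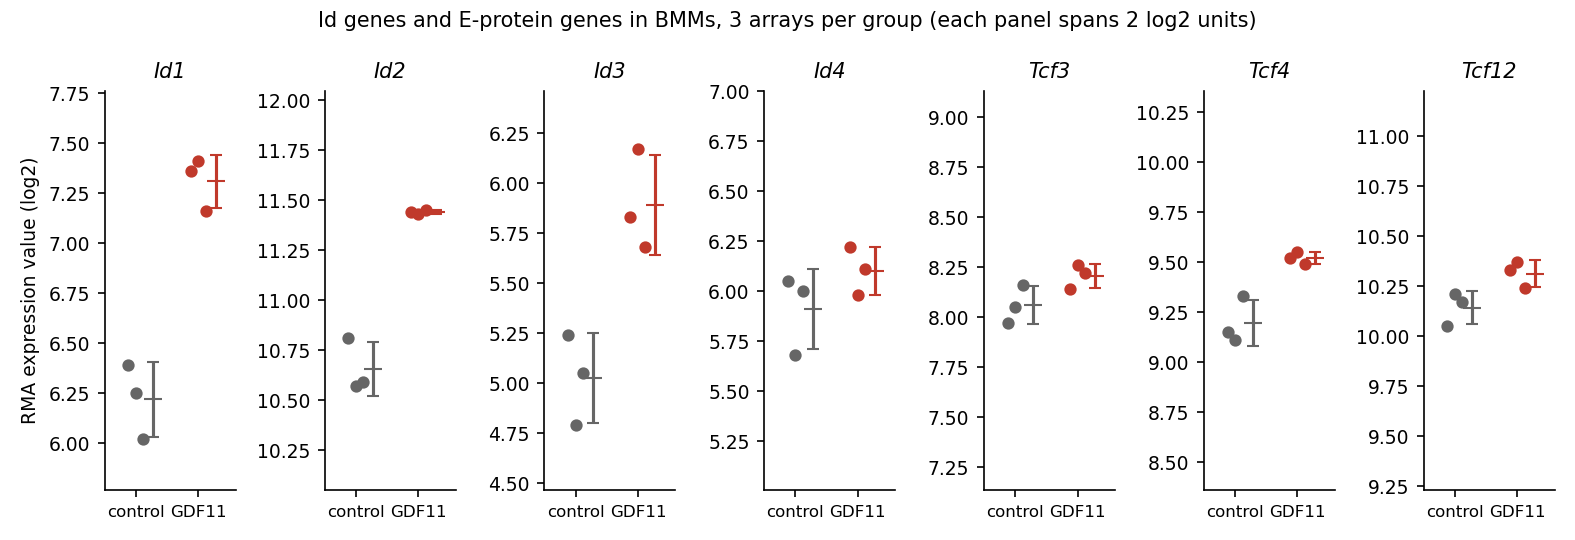
RMA expression values (log2, vertical axes, each spanning 2 units around its own gene) of the 4 *Id* genes and 3 E-protein genes in control (grey) and GDF11 (red) BMMs. Points are the 3 arrays of a group and bars give mean and SD; the groups lie apart for *Id1*, *Id2* and *Id3*, overlap for *Id4* and *Tcf3*, and are separated narrowly for *Tcf4* (0.16) and *Tcf12* (0.04).

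Among the E proteins, *Tcf4* had the largest change. It read 9.15, 9.11 and 9.33 on control arrays and 9.52, 9.55 and 9.49 on GDF11 arrays. All GDF11 arrays were above all control arrays, the nearest by 0.16. The mean went from 9.20 ± 0.12 to 9.52 ± 0.03 (SD, n = 3 arrays per group), a log2 change of 0.32 with an interval of 0.14 to 0.49, or 1.11-fold to 1.41-fold (limma, adjusted p = 0.0247). This call was lost without any one of 5 of the 6 arrays, at an adjusted p of 0.0756 and 0.0831 without control replicates 1 and 2 and 0.0791, 0.0691 and 0.0589 without GDF11 replicates 1, 2 and 3 (limma). It held without control replicate 3, at 0.0159.

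*Tcf12* and *Tcf3* did not pass the test. The *Tcf12* values were 10.05, 10.21 and 10.17 on control arrays and 10.33, 10.37 and 10.24 on GDF11 arrays, which leaves a gap of only 0.04 between the groups. Its log2 change was 0.17 with an interval of 0.01 to 0.34 (limma, adjusted p = 0.166). *Tcf3* read 7.97, 8.05 and 8.16 on control arrays and 8.14, 8.26 and 8.22 on GDF11 arrays, and the groups overlapped by 1 array on each side. The change was 0.15 with an interval of −0.02 to 0.32 (limma, adjusted p = 0.248). A rise of more than 1.26-fold lies outside both intervals. In all, 5 of the 7 genes had groups that did not overlap, each with the GDF11 arrays higher, against 16.4% of tested probe sets.

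**Figure D2:**
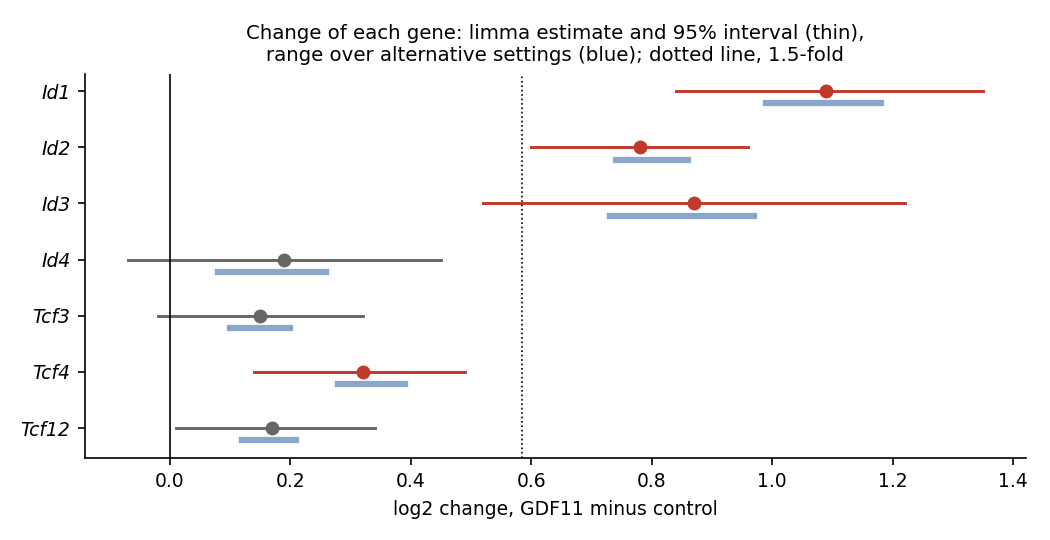
Log2 change (GDF11 minus control, horizontal axis) of the 7 genes with 95% intervals from limma over 3 arrays per group; red passed at an adjusted p under 0.05, blue bars give the range over the alternative settings and the dotted line marks 1.5-fold. *Id1*, *Id2* and *Id3* lie at 0.78 to 1.09, to the right of the other 4 genes at 0.15 to 0.32.

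The change in the balance of Id to E-protein transcripts was read within each array, as the log2 value of an *Id* probe set minus that of an E-protein probe set. Such a difference has no meaning as a level, since probe sets differ in brightness, but its shift between groups compares changes. Each of the 9 differences of *Id1*, *Id2* or *Id3* against an E-protein gene was higher on every GDF11 array than on any control array. These 9 reuse the same few probe sets, so they are not separate results. The share of such pairs over all probe sets was not computed. Of single tested probe sets, 16.4% had every GDF11 array above every control array. The shifts ran from 0.46 for *Id2* against *Tcf4* to 0.94 for *Id1* against *Tcf3*. *Id2* against *Tcf4*, the closest pair, went from 1.46 ± 0.20 to 1.92 ± 0.04 (SD, n = 3 arrays per group), a 1.37-fold shift. For *Id4* against *Tcf3*, *Tcf4* and *Tcf12* the shifts were 0.05, −0.13 and 0.02, and the groups overlapped in all 3.

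Among the *Id* genes themselves, *Id1* shifted against *Id2* by 0.31 with no overlap. Differences of *Id1* against *Id3* (0.22) and of *Id2* against *Id3* (−0.09) overlapped between groups. *Id4* lagged behind each of the others without overlap, by 0.90, 0.58 and 0.67 against *Id1*, *Id2* and *Id3*. Of the E-protein pairs, *Tcf4* shifted by 0.15 against *Tcf12*, and *Tcf3* by −0.17 against *Tcf4*, both without overlap, while *Tcf3* and *Tcf12* differed by −0.02. All 21 pairs were compared by an exact permutation test over the 6 arrays, and the 15 pairs without overlap had p = 0.1, two-sided, the smallest that 3 arrays against 3 allow. Adjusted over the 21 pairs that is 0.14, so none of these shifts could pass a threshold of 0.05 in this design. The 21 pairs reuse the same 7 probe sets and are not separate results.

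**Figure D3:**
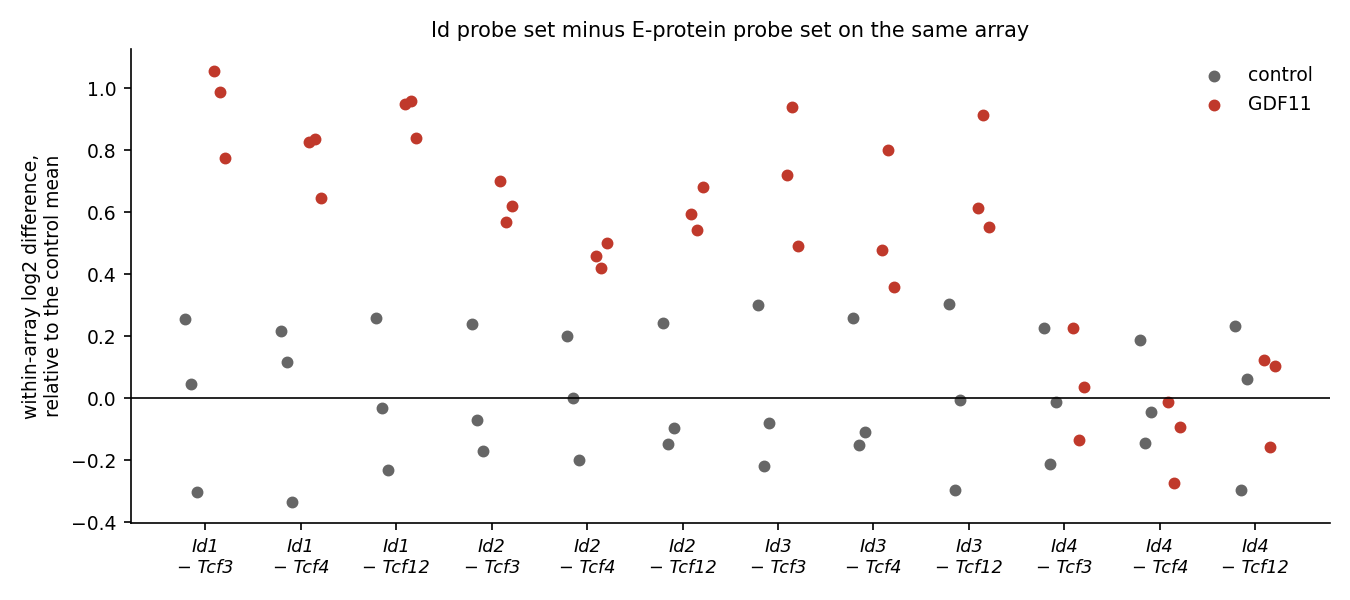
Within-array difference of an *Id* and an E-protein probe set (log2, vertical axis), relative to the control mean of that pair, for 12 pairs; points are the 3 control (grey) and 3 GDF11 (red) arrays. Red lies above grey without overlap for the 9 pairs with *Id1*, *Id2* or *Id3*, and the 2 colours mix for the 3 pairs with *Id4*.

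Genes whose values over the 6 arrays lay closest to those of each called gene were sought among the 9918 genes brighter than the median, by the root mean square difference of centred log2 values. These are descriptions, since closeness chose them. Closest to *Id1* were *Cd244a*, an NK-cell family receptor (0.065), *Vipr1* (0.083) and *Col14a1*, a collagen (0.091). *Id2* was matched by *Cxcr4*, the receptor for Cxcl12 (0.056), and *Dbn1*, an actin-binding protein (0.059). *Id3* lay further from its nearest genes, *Lgalsl* (0.124), *Thbs2*, a thrombospondin (0.140), and *Mmp2*, a gelatinase (0.142). *Id3* itself was dimmer than the median and its arrays scattered more (SD 0.23 and 0.25), and genes of its own brightness were not candidates. Its distances therefore cannot be set against those of the other called genes. Closest to *Tcf4* were *Repin1* (0.027), *Tgif1*, a repressor that binds Smads (0.030), and *Tet3*, a DNA demethylation enzyme (0.030).

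The E proteins act with lineage-specific HLH partners and shared cofactors, and these are read here from lists of the network. Over 114 distinct genes in 11 lists, 20 rose, 18 fell and 76 did not pass, with a median log2 change of 0.03. Over all 23410 tested probe sets 7.31% were higher and 8.64% lower, the shares to set beside each list count below. The lists were chosen with earlier results of these data known, and no set test was run. Of 18 partners, 1 was called higher, 2 lower and 15 neither way (median −0.01). Those 15 had group means below the array medians of 6.11 to 6.18, and whether they are expressed in these cells was not measured. *Tal2*, of the Tal family of haematopoietic partners, fell 4.30-fold (limma, adjusted p = 8.16e-05). The mean went from 6.95 ± 0.23 to 4.84 ± 0.24 (SD, n = 3 arrays in each group), and the GDF11 mean lay below the array medians. *Lyl1*, a relative of *Tal2* in blood progenitors, fell 1.62-fold. *Tal1* was 1.19-fold higher, but this call was lost without any single array, at adjusted p values up to 0.13. Among 9 cofactors, 1 was called higher and 2 lower (median 0.07). *Lmo2*, which bridges Tal and E proteins to Ldb1, fell 1.39-fold and *Crebbp*, a coactivator, rose 1.45-fold. *Kat2b* fell 1.29-fold, a call lost without control replicate 3 or GDF11 replicate 1 at adjusted p values up to 0.0558.

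HLH repressors outside the Id family also included genes that rose. Of 7, 2 were called higher and 0 lower (median 0.05). *Bhlhe40*, which binds E-boxes itself, rose 2.93-fold, from 8.07 ± 0.13 to 9.62 ± 0.09 (SD, n = 3 arrays in each group), with an adjusted p of 3.12e-05 in limma. *Hes1*, a Notch effector, was 1.49-fold higher, with means of 4.23 in control and 4.8 in GDF11 that lay below the array medians. It lost this call without any one array but control replicate 1, at adjusted p values up to 0.0998 (limma). The call was also lost with all rows tested (adjusted p = 0.073, limma) and by the methods' t-test (adjusted p = 0.144).

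Upstream of the *Id* genes, the BMP branch split, with 4 of 14 ligands, receptors and Smads higher, 4 lower and 6 not called (median 0.02). *Smad5*, which carries BMP signals to *Id* genes, rose 1.66-fold, and *Smad1* had a log2 change of −0.25 (limma, adjusted p = 0.146). The co-receptor *Eng* fell 2.59-fold, the ligand *Bmp2* 2.25-fold and the receptor *Acvrl1* 1.58-fold. The *Bmp2* means, 5.6 in control and 4.44 in GDF11, lay below the array medians. In the activin and TGF-β branch, which carries GDF11 signals through Smad2/3, 1 of 10 genes was higher and 2 lower (median −0.03). *Tgfbr1* rose 2.57-fold and *Acvr1b* fell 1.42-fold, while *Smad3* had a log2 change of 0.10 (limma, adjusted p = 0.512). *Atf3*, known to join Smad3 in repressing *Id1* in epithelial cells, fell 3.85-fold, from 9.5 ± 0.04 to 7.56 ± 0.12 (SD, n = 3 arrays in each group), with an adjusted p of 7.89e-06 in limma.

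Besides the *Id* family, 4 of 11 known Smad1/5 targets were higher and 0 lower. The median of the 11 was 0.18, against 0.82 for the *Id* genes. *Hamp*, *Atoh8*, *Hey1*, *Msx1*, *Msx2*, *Nog* and *Dlx2* had group means below the array medians of 6.11 to 6.18. Whether these are expressed in the cells was not measured. *Smad7*, the inhibitory Smad that Smad2/3 also induces, rose 2.93-fold and *Grem1*, a BMP antagonist, 1.33-fold. *Smad6* (1.41-fold) and *Hamp* (1.32-fold) each lost the call without control replicate 2 or 3 or GDF11 replicate 2 or 3. The adjusted p values then reached 0.137 and 0.0905. Both calls were also lost with all rows tested and by the methods' t-test, in the latter at adjusted p values of 0.17 and 0.096. Whether any Smad lay behind the rise of an *Id* gene was not tested. Of 5 genes that act on the turnover of Id proteins, *Smurf2*, a ubiquitin ligase for Id1 and Id3, rose 1.65-fold and the other 4 did not pass (median 0.05). Protein amounts were not measured on the arrays.

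The called genes among CDK inhibitors and among genes that E proteins activate in other cells did not share a single direction. The CDK inhibitors were listed as a gene family, and whether E proteins activate each of them was not tested. Of 6 CDK inhibitor genes, 0 were higher and 2 lower (median −0.14). *Cdkn1c* fell 1.41-fold, a call lost without control replicate 3 at an adjusted p of 0.056. *Cdkn1b* fell 1.28-fold, lost without control replicate 2 or 3 or GDF11 replicate 1 or 3 at up to 0.0807, and with all rows tested. Both calls were also lost by the methods' t-test, at adjusted p values of 0.0744 and 0.075. *Cdkn1a* shares its probe set with another symbol and was not read. Of 18 lymphoid targets, 3 were higher, 1 lower and 14 not called (median 0.08). *Cxcr4*, also the closest profile to *Id2*, rose 1.66-fold, and *Socs3* rose 1.49-fold, a call lost by the methods' t-test at an adjusted p of 0.0584. *Foxo1* was 1.30-fold higher and lost the call without control replicate 1 or 2 or GDF11 replicate 2 or 3. *Il7r*, 1.22-fold lower, lost it without any single array. The adjusted p values then reached 0.082 and 0.0933. Both calls were also lost with all rows tested and by the methods' t-test, in the latter at adjusted p values of 0.0926 and 0.0598. Of 8 targets of Tcf4 in plasmacytoid dendritic cells, 0 were called higher and 2 lower (median −0.03). Those 2 were *Irf7*, 6.51-fold, which interferon also induces, and *Tlr7*, 1.51-fold. *Spib*, *Siglech*, *Ccr9* and *Pacsin1* had group means of 4.9 to 5.58, below the array medians of 6.11 to 6.18. Most of the lymphoid targets not called also lay below those medians. Whether such dim genes are expressed in these cells was not measured.

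Mitf, its relatives and their osteoclast targets, where Id proteins are known to act by binding Mitf, moved both ways, with 3 of 10 higher, 3 lower and 4 not called (median 0.07). *Mitf* had a log2 change of 0.23 (limma, adjusted p = 0.0516, with 0.00617 to 0.151 over the alternatives). *Oscar*, the target at which Id proteins oppose Mitf, went from 5.67 ± 0.17 to 5.98 ± 0.15 (SD, n = 3 arrays in each group). Both means lay below the array medians of 6.11 to 6.18, and *Oscar* did not pass (limma, adjusted p = 0.101). *Acp5*, tartrate-resistant acid phosphatase, rose 3.66-fold, *Atp6v0d2*, a proton pump subunit, by 1.58 on the log2 scale, and *Ctsk*, cathepsin K, 1.90-fold. *Tfec*, a relative of Mitf in macrophages, fell 1.46-fold.

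**Figure D4:**
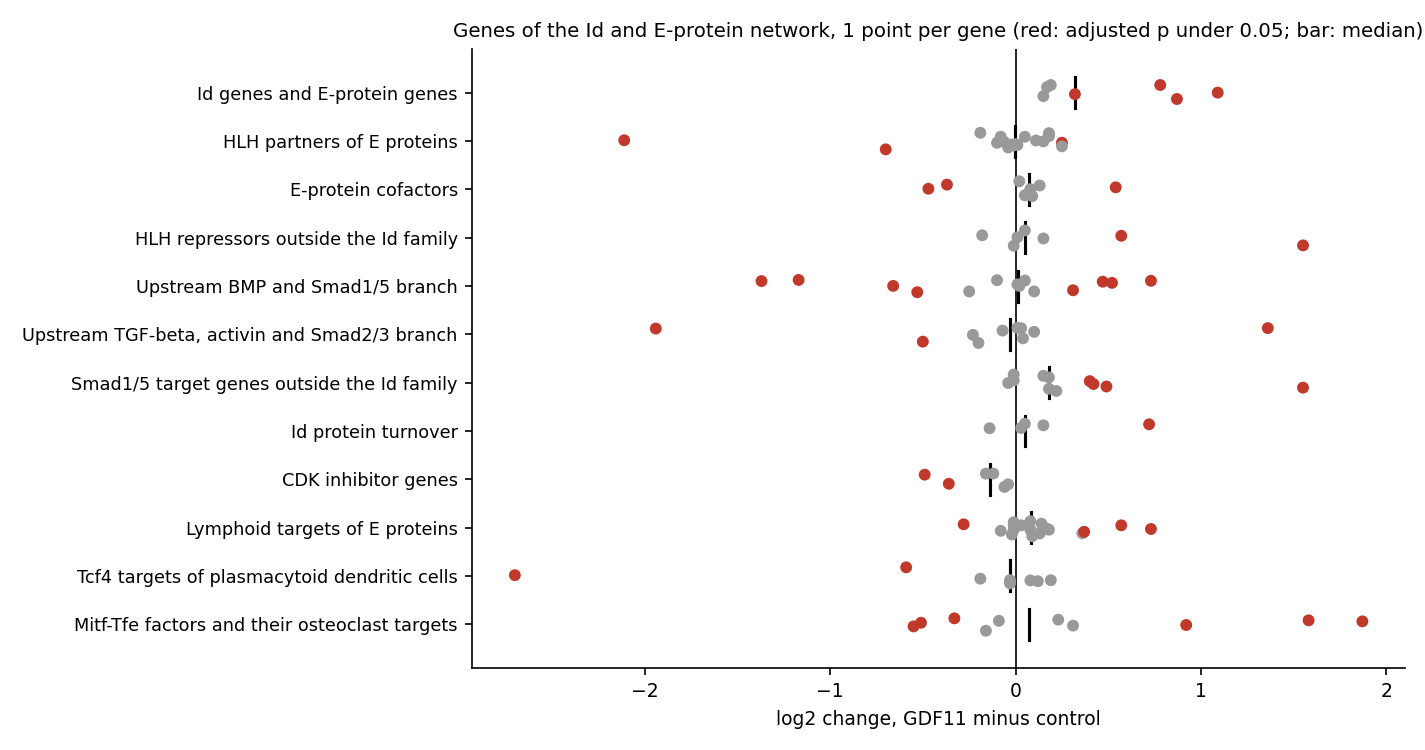
Log2 change (GDF11 minus control, horizontal axis) of the 7 genes, top row, and of 11 lists from their network, 1 point per gene over 3 arrays per group; red passed at an adjusted p under 0.05 and bars are medians. The top row lies wholly above 0 with a median of 0.32, whereas the medians of the lists lie between −0.14 and 0.18.

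The 10 BMM markers had mean log2 values of 8.18 to 13.04, each above the array medians. As there were no detection calls and probe sets differ in brightness, the makeup of the cultures could not be read from such levels. Of these 10, 0 rose and 5 fell, the largest falls being those of *Fcgr1* (2.65-fold) and *Cd14* (2.08-fold). Over all tested probe sets 7.31% were higher and 8.64% lower. Of 51 markers of 8 other cell types, 6 rose, 3 fell and 42 did not pass (median 0.01). Neutrophil and stromal genes included 5 of those that rose. The 3 that fell were *Cd79b* (2.28-fold), *Pf4* (2.15-fold) and *Kdr* (1.41-fold), from the B cell, erythroid and megakaryocyte, and endothelial lists. The summed level of 8 neutrophil genes was 9.58 to 9.76 on control and 10.14 to 10.37 on GDF11 arrays. *Ngp*, the brightest of the 8 (means of 8.28 and 9.28), and *S100a8* were higher. The defining marker *Ly6g* had a log2 change of −0.22 that did not pass. The summed level of 8 stromal genes was 8.96 to 9.14 and 9.37 to 9.59, with *Col1a1*, *Col1a2* and *Alpl* higher and *Dcn* and *Lum* not called. The part of such cells in the changes of *Id1*, *Id2* and *Id3* was not tested. Across probe sets, correlations were 0.997 to 0.998 within a group and 0.989 to 0.991 between groups, and no array stood apart.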

How the data were processed

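Total RNA of 6 BMM samples was read on Affymetrix Mouse Gene 1.0 ST arrays, with probes placed along each transcript. The authors made the deposited log2 values with RMA (robust multichip average), in which background is corrected, arrays are quantile-normalised and probes are combined into probe sets. The submitters' processing notes name Transcriptome Analysis Console 3.0, and no genome build was found in the labels or methods. RMA compresses bright and dim signals, so fold changes can be understated.

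Of 35556 probe sets, 23410 carry a gene symbol and were tested, and 21789 carry exactly 1. Symbols were checked by Entrez identifier against a RefSeq table (21698 matched, 0 changed). The GDF11 and control arrays were fitted in R 4.3.3 by limma 3.58.1 (lmFit then eBayes, two-sided), with Benjamini-Hochberg adjustment over all tested probe sets and 95% intervals from the same fit. "Rose" and "fell" mean that the adjusted p was under 0.05. Residual degrees of freedom were 4, with 3.67 added from the prior, and the number of arrays limits the precision. On simulated arrays with the same means and spread, this comparison found 43 of 50 simulated 1.5-fold changes but 6 of 50 at 1.25-fold. There were 23410 probe sets and 5 false calls. Only 50 probe sets were changed at each simulated fold, whereas 3735 passed on the real arrays. The adjustment was therefore stricter in the simulation, which does not give the share of 1.25-fold changes found on the real arrays. The genes, the lists and the tests were chosen with earlier results of these data known. In each list, up to 4 called genes with the largest change are named, besides genes the background needs and, for each gene called, the 3 closest profiles, of which 1 is not reported here. The marker genes named and the motifs were chosen after their values were seen. Alternatives covered the rows tested, a filter on dim rows, 2 normalizations, another estimate of spread, a t-test as in the methods, a block for replicate number and leaving out each array.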

Additional observations from a re-analysis of the deposited data

How the results depend on the processing

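All 89 recomputed changes of the 7 genes kept their sign. *Id1* and *Id2* passed under all 13 alternatives, with log2 changes of 0.99 to 1.18 and 0.74 to 0.86. *Id3* passed under 11 of 12 and missed by the methods' t-test (0.867, adjusted p = 0.0728), so 2 genes rather than 4 were called higher there. *Tcf4* (0.319) missed with all rows tested (adjusted p = 0.0573), by the methods' t-test (adjusted p = 0.0684) and without 5 of the 6 arrays, with a range of 0.276 to 0.386 over arrays left out. *Tcf12* (0.172) passed with a trended and robust spread (adjusted p = 0.0377) and missed under the other 12, and *Id4* and *Tcf3* passed under none. Among rows brighter than the median, *Id3* and *Id4* could not be fitted. Averaging probe sets changed nothing, as each gene has 1. Of 32 called genes named from the lists, 22 stayed called under every alternative. Without GDF11 replicate 1, 1129 probe sets were higher and 1456 lower, against 1712 and 2023 with all arrays. Of 286 recomputed counts of single lists, 244 stayed within 1.5 times.

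Arrays of the same replicate number deviated together for only 1 of 3 numbers (correlations of 0.0635, 0.335 and −0.000832 across probe sets), so the numbers were not taken to pair the samples. With a replicate block the 4 calls stayed, at log2 changes of 1.091, 0.778, 0.867 and 0.319 for *Id1*, *Id2*, *Id3* and *Tcf4*, with adjusted p values up to 0.0462 (limma), and 1676 probe sets were higher against 1712 without it. The block changed no call of the 7 genes, and *Tal1*, *Smad6* and *Hamp* lost theirs (adjusted p = 0.053, 0.088 and 0.0572, limma). The arrays hold no measure of depth, and 3 per group allow p = 0.1 at the smallest in an exact permutation test.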
